A study of Homo sapiens with 10 samples.

Results

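Kinesins are motor proteins that burn ATP to walk along microtubules or to take their ends apart. The transcripts described here are those of every gene whose symbol is KIF or KIFC followed by a number, 33 of the 13279 transcripts in the RNA-Seq table. Of these, 28 were also among the 11337 transcripts of the Ribo-Seq table. They were read in BJ cells, a human fibroblast line immortalised with hTERT and grown in serum. The cells were left as a control or kept on nutlin-3a, which frees p53 from MDM2, for 2, 4, 6 or 19 h, and each of these 5 states gave 1 library of poly(A) RNA (RNA-Seq) and 1 of ribosome footprints (Ribo-Seq). The labels do not say whether the control received a solvent, and nothing in them ties any of the 10 libraries to a culture or a sequencing run.

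Dividing cells need a set of kinesins that is made ahead of mitosis and removed after it. KIF11 pushes the spindle poles apart, KIFC1 bundles spindle microtubules, KIF2C and KIF18A act at microtubule ends near the kinetochores, KIF22 and KIF4A bind chromosome arms, and KIF20A and KIF23 are needed for cytokinesis. Interphase transport relies on others: KIF5 heavy chains carry cargo with the kinesin light chains, the KIF3 subunits form kinesin-2 with KIFAP3, and KIF1, KIF13 and KIF16 members move organelles and endosomes. Another set works in cilia or in Hedgehog signalling, such as KIF7. Activated p53 is known to silence many genes of mitosis through p21 (CDKN1A). By known function 11 members were classed as mitotic, 15 as transport, 5 as cilium and Hedgehog and 2 as other.

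All values are FPKM, which correct read numbers for the length of the transcript and the depth of the library, so RNA levels can be compared between genes. In Ribo-Seq the same length per transcript fitted the values as in RNA-Seq, and TE of the control varied with length. Density and TE are therefore not directly comparable between genes. A change is the log2 ratio of a treated library to the control of its own assay, and a member was called at a change of 2-fold or more, an absolute log2 ratio of at least 1. Ribosome density is the Ribo-Seq FPKM, and translation efficiency (TE) is the log2 ratio of Ribo-Seq to RNA-Seq FPKM. With 1 library per group no difference could be tested. The errors given are counting errors (SE) computed from the whole reads behind each FPKM, which were recovered for all 28 members in both tables and for KIF4A. The recovered totals ranged from 23845560 to 27554288 reads in the RNA-Seq libraries and from 7744900 to 14460725 in the Ribo-Seq libraries, with 19 h the shallowest of the latter. CDKN1A, which encodes p21 and checks the treatment, was at 68.6 FPKM in the RNA-Seq control and at 212, 915, 1204 and 1316 FPKM at 2, 4, 6 and 19 h. All 9 fibroblast markers were listed, at 55.5 FPKM or more in every RNA-Seq library, and their sum ranged from 9352 to 12605 FPKM. Of 5 blood and endothelial markers 3 were listed, none above 0.509 FPKM. Of 5 epithelial markers 4 were listed, and only KRT18 stood above 1 FPKM, at 230 to 315 FPKM over the RNA-Seq libraries.

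The mitotic kinesins lost nearly all of their RNA. All 11 fell 2-fold or more by 6 h and all 11 were lower again at 19 h, when their median log2 change was -5.25, or 38.1-fold lower than in the control. For the 15 transport kinesins the median at 19 h was 0.069, and none of them fell 2-fold. Over all 13279 transcripts 8.54% were 2-fold or more lower in RNA at 19 h and the median log2 change was -0.026. The mitotic class added up to 360 FPKM in the control and to 324, 242, 52.5 and 12.7 FPKM after 2, 4, 6 and 19 h. Its share of the summed FPKM of all kinesins went from 56.8% in the control to 4.96% at 19 h, while the share of the transport class went from 36.7% to 83.1%. In a bulk sample, fewer cells that express a gene and less of its RNA per cell cannot be told apart.

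**Figure D1:**
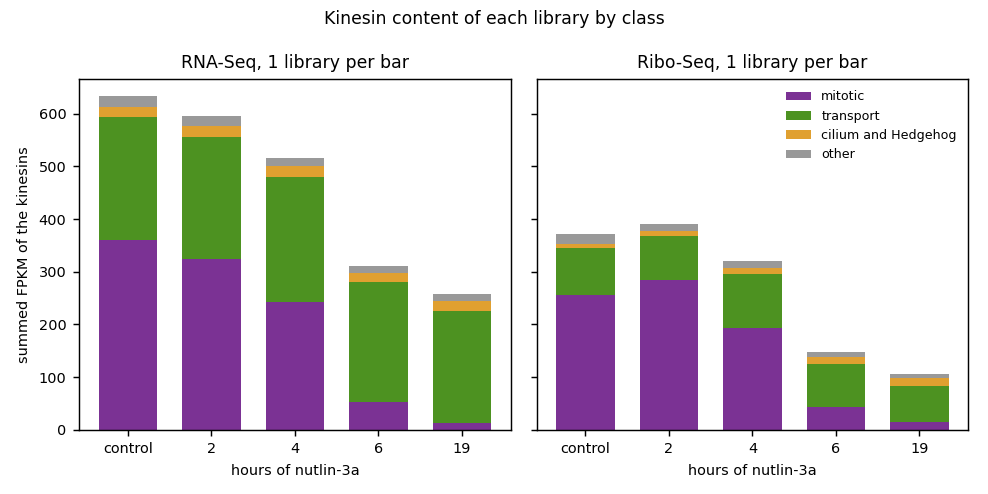
Summed FPKM of the kinesins in each RNA-Seq library (left, 33 members) and Ribo-Seq library (right, 28 members), stacked by class, with 1 library per bar and hours of nutlin-3a on the x axis. The mitotic block shrinks from 360 to 12.7 FPKM in RNA-Seq and from 256 to 13.9 FPKM in Ribo-Seq, while the transport block stays between 213 and 239 FPKM in RNA-Seq.

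The cytokinesis motors were among the most abundant kinesins of the control. KIF20A (ENSG00000112984), which brings the chromosomal passenger complex to the central spindle, was at 68.2 FPKM in the control and at 58.8, 48.0, 9.50 and 1.43 FPKM at 2, 4, 6 and 19 h. KIF23 (ENSG00000137807), the motor of centralspindlin, went from 56.4 FPKM through 54.1, 34.5 and 7.67 to 2.45 FPKM. KIF20B, which also acts late in mitosis, had 12.1, 12.5, 10.1, 2.92 and 0.695 FPKM. In all 3 the steep part of the fall lay after 4 h. KIF14 (ENSG00000118193), which works with citron kinase in cytokinesis, had 10.95, 7.65, 8.99, 1.92 and 0.216 FPKM in the same order, and was the only mitotic member with a higher value at 4 h than at 2 h. The log2 changes at 19 h were -5.58 ± 0.13 for KIF20A, -4.53 ± 0.097 for KIF23, -4.12 ± 0.14 for KIF20B and -5.66 ± 0.23 for KIF14.

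Motors of the spindle and of the kinetochore followed the same course. KIFC1 (ENSG00000237649), a minus-end-directed motor, went from 50.04 FPKM through 44.2, 25.9 and 5.03 to 0.681 FPKM. KIF2C (ENSG00000142945), a kinesin that depolymerises microtubules instead of walking on them, was at 42.8, 41.6, 31.5, 4.99 and 0.560 FPKM. These were the deepest falls of the family in RNA, with log2 changes at 19 h of -6.26 ± 0.22 for KIF2C and -6.20 ± 0.21 for KIFC1, which do not differ beyond their counting error. KIF11 (ENSG00000138160), the tetrameric motor that separates the poles, had 35.5, 30.3, 22.4, 4.84 and 1.48 FPKM. KIF15, which can share the work of KIF11, had 9.68, 7.88, 6.04, 0.914 and 0.254 FPKM. KIF18A, which limits the swings of chromosomes at the metaphase plate, had 10.9, 9.27, 6.95, 3.05 and 1.06 FPKM. KIF18A lost least, with a log2 change of -3.37 ± 0.16 at 19 h, against -4.59 ± 0.11 for KIF11 and -5.25 for KIF15, whose reads could not be recovered.

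Both chromokinesins fell as well, to unequal depth. KIF22 (ENSG00000079616), which pushes chromosome arms towards the spindle equator, had 48.4, 43.5, 34.7, 9.52 and 3.58 FPKM, and at 19 h it was the highest mitotic kinesin left. KIF4A (ENSG00000090889), which works with PRC1 on the central spindle, had 15.4, 14.5, 12.6, 2.10 and 0.344 FPKM. The log2 changes at 19 h were -3.76 ± 0.11 and -5.48 ± 0.23. KIF4B, a near-identical copy of KIF4A, was not among the listed transcripts, and since the authors kept only reads with a unique hit, reads shared by the copies could be lost from KIF4A if KIF4B was part of their reference.

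The fall came in steps that most members shared. At 2 h the median log2 change of the 11 RNAs was -0.18, with a range of -0.52 (KIF14) to 0.046 (KIF20B). At 4 h all 11 were below the control, from -0.95 (KIFC1) to -0.26 (KIF20B), with a median of -0.51 against -0.086 over all transcripts. None had reached 2-fold at 4 h, when 3.92% of all transcripts were 2-fold or more lower. From 4 to 6 h every one of the 11 dropped more than 2-fold, with a median log2 step of -2.23. From 6 to 19 h all 11 did so again, with a median step of -2.07. At 6 h their median log2 change was -2.87, with 11 of 11 called lower against 7.66% of all transcripts. The RNA values at 19 h still rested on 39 to 230 reads per mitotic member with recovered reads. No label gives the run of a library. Run and treatment therefore cannot be told apart in the RNA changes at 2 and 4 h or in the step from 4 to 6 h.

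**Figure D2:**
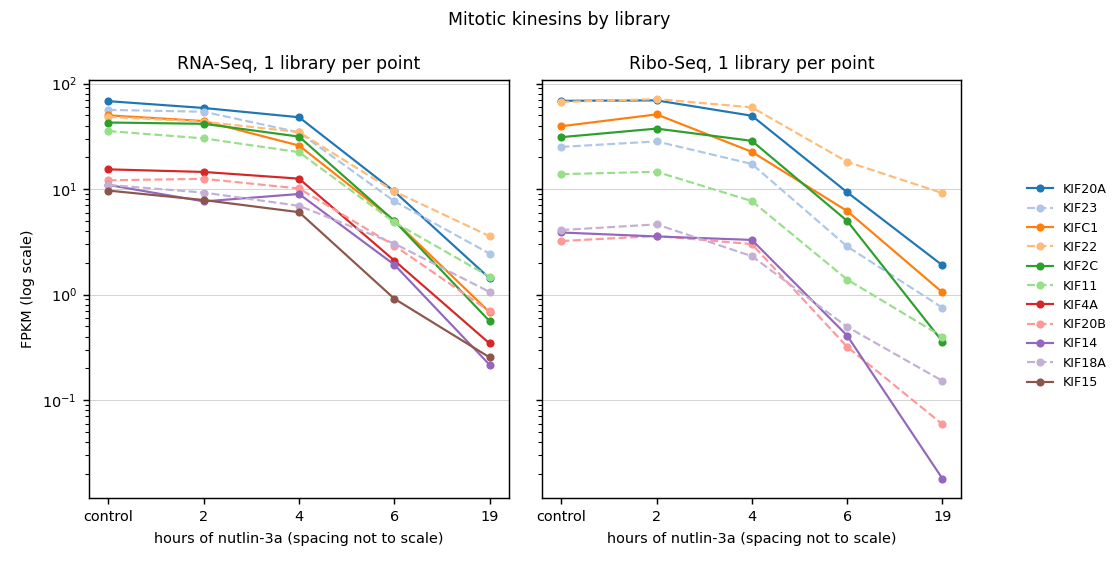
FPKM of each mitotic kinesin (log y axis) against hours of nutlin-3a, with the control at 0, in RNA-Seq (left, 11 members) and Ribo-Seq (right, 9 members) and 1 library per point. RNA lines stay within 2-fold of the control up to 4 h and all lines drop after it, with KIF22 ending highest in both assays and KIF14 lowest.

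Promoter sequence was examined because the mitotic members moved together. The cell cycle genes homology region (CHR) and the CCAAT box are promoter elements known from genes of late cell cycle phases. Windows from 250 bases before to 50 after the start of a gene were taken from RefSeq on GRCh38.p14, and 27 of the 33 members had at least 1. KIF5A, KIF13B, KIFC2, KIFC3, KIF27 and KIF26B had none. A CHR, searched as TTTGAA or TTTAAA on either strand, was in 10 of the 12 windows of mitotic kinesins (83.3%). It was in 2 of the 14 windows of transport kinesins (14.3%), those of KIF5B and KIF16B, and in 24.0% of all 35116 windows. In the windows of genes that the RNA-Seq table lists the share was 17.6%. CCAAT on either strand was in 9 of the 12 mitotic and 5 of the 14 transport windows, against 34.6% of all windows. Both together were in 8 of the 12 mitotic windows (66.7%), 1 of the 14 transport windows (7.14%) and 9.27% of all windows. The fixed forms searched for an E2F site, TTTCCCGC, TTTCGCGC, TTTGCCGC and TTTGGCGC, were in 1 mitotic window, that of KIF15, in no transport window and in 3.31% of all windows. There the E2F form began at -43 and ended just before the CHR.

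The stretches below are the 100 bases before the start, 5′ to 3′ on the strand of the gene, with CHR and CCAAT letters, or their reverse complements, in capitals. They are shown for the 6 mitotic kinesins whose CHR lies wholly inside this stretch, for KIF22, the mitotic kinesin with a CCAAT box and no CHR in its windows, and for the transport kinesins KIF3B and KIF1C.
KIF20A, chr5:138179012-138179111, plus strand: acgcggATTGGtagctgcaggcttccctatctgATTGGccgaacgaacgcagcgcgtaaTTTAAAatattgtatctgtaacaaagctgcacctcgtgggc
KIF23, chr15:69414249-69414348, plus strand: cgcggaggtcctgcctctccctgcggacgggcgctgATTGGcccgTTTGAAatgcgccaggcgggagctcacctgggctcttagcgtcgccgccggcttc
KIF11, chr10:92593030-92593129, plus strand: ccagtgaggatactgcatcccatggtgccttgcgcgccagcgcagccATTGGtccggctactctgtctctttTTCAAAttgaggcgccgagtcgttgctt
KIF4A, chrX:70290004-70290103, plus strand: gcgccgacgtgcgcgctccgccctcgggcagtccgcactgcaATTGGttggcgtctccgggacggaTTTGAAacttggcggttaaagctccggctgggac
KIF18A, chr11:28108157-28108256, minus strand: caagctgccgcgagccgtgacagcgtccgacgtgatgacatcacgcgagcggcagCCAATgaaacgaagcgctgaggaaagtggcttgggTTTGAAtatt
KIF15, chr3:44761694-44761793, plus strand: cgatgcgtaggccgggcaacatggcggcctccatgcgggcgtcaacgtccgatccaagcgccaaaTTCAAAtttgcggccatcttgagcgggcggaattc
KIF22, chr16:29790651-29790750, plus strand: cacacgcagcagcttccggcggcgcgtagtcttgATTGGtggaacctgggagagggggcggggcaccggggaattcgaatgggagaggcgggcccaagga
KIF3B, chr20:32277551-32277650, plus strand: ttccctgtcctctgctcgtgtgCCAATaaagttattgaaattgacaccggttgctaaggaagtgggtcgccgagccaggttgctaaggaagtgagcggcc
KIF1C, chr17:4997850-4997949, plus strand: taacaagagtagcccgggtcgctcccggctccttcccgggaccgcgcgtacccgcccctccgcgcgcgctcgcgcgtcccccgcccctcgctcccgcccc

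In KIF20A, KIF23, KIF11, KIF4A and KIF18A a CCAAT box stood upstream of the CHR. The CHR nearest to the start began at -41, -55, -28, -34 and -10 from it, as the plot of motif positions shows, and KIF23 had another at -211. In KIF2C, KIFC1, KIF14 and KIF20B the nearest CHR lay across or after the start, at -3, 5, 2 and 25 from it. KIF5B carried its CHR at -140, upstream of its CCAAT box at -59. KIF24, classed with the cilium kinesins, had 3 CCAAT boxes and no CHR in its windows. A match gives the letters only and no binding was measured here.

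**Figure D3:**
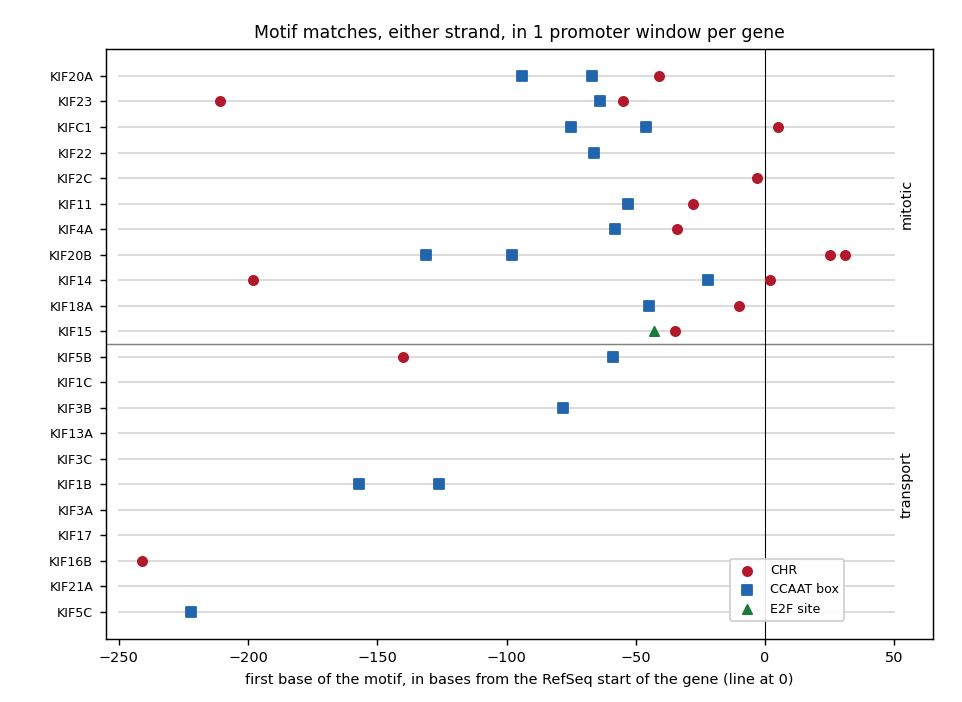
First base of each CHR (circles), CCAAT box (squares) and E2F form (triangle), on either strand, in bases from the RefSeq start of the gene, for 11 mitotic and 11 transport kinesins. Matches are drawn from 1 window per gene, that with the lowest start coordinate among its windows that hold a match. Circles sit in 10 of 11 mitotic rows, most of them within 60 bases of the start, and in 2 of 11 transport rows, both more than 100 bases upstream.

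Ribosome density of the mitotic kinesins fell together with their RNA. The 9 mitotic members in the Ribo-Seq table summed to 256, 284, 194, 44.1 and 13.9 FPKM in the control and at 2, 4, 6 and 19 h, and all 9 were called lower at 6 h and at 19 h. Over all 11337 transcripts 10.6% were 2-fold or more lower in density at 6 h and 16.2% at 19 h. The median log2 density changes of the 9 were 0.16, -0.47, -3.05 and -5.18 at 2, 4, 6 and 19 h, and those of all transcripts were 0.0061, 0.078, -0.022 and -0.18. KIF4A and KIF15 were not listed in the Ribo-Seq table. The smallest value there was 0.004 FPKM, so every listed transcript kept footprints in all 5 libraries. The density and TE medians of the mitotic class cover only such members, and why these 2 are missing was not tested.

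KIF20A density was 68.7, 69.4, 49.6, 9.34 and 1.90 FPKM, and it changed by -5.18 ± 0.21 on the log2 scale at 19 h. KIF22 density was 66.9, 71.4, 59.6, 18.1 and 9.17 FPKM, a change of -2.87 ± 0.12. These were the only mitotic members with more than 30 footprint reads left at 19 h, 47 and 150. KIF23 had 25.1, 28.3, 17.3, 2.86 and 0.751 FPKM and KIFC1 had 39.5, 51.1, 22.6, 6.20 and 1.05 FPKM. KIF2C had 31.1, 37.5, 28.7, 5.00 and 0.359 FPKM, the last from 8 reads. KIF11 had 13.9, 14.6, 7.70, 1.39 and 0.399 FPKM, the last from 15 reads. Except in KIF14, density at 2 h was above the control in every mitotic member, and in KIF23, KIF2C and KIFC1 the 95% counting interval of that change lay above 0. Over all transcripts 49.2% were below 0 in density at 2 h, and the share with such an interval was not computed. The run of the 2 h library is not given, so run and treatment cannot be told apart here.

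The lowest mitotic densities rested on a handful of reads. KIF18A went from 4.09 FPKM in the control to 0.152 FPKM at 19 h, on 4 reads. KIF20B went from 3.22 to 0.059 FPKM, on 3 reads, a log2 ratio of -5.77 with a 95% counting interval of -7.41 to -4.13. KIF14 went from 3.88 to 0.018 FPKM, on 1 read, a log2 ratio of -7.75 with an interval of -10.6 to -4.92. These intervals lie wholly below a 2-fold fall, and the depth of the fall within them is not resolved at this depth.

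At 6 and 19 h footprints per mRNA of the mitotic kinesins changed less, in the median, than their RNA or their density. The median log2 TE changes of the 9 members were 0.31, 0.15, -0.26 and -0.53 in time order, with median counting SEs of 0.070, 0.077, 0.16 and 0.39. At 2 h all 9 were above 0, from 0.11 (KIF20B) to 0.55 (KIFC1), when 44.0% of all transcripts were below 0 and their median was 0.052. At 19 h 3 of the 9 were called lower (KIF14, KIF18A and KIF20B, on 1, 4 and 3 footprint reads), against 7.72% of all 11258 transcripts in both tables, and none was called higher, against 3.53%. The 95% counting intervals of these 3 calls held 0. Of the 9, 6 were below 0 in TE at 19 h and 3 above it: KIF20A (0.40 ± 0.25), KIF22 (0.89 ± 0.16) and KIFC1 (0.97 ± 0.37). The 95% counting interval of KIF20A held 0. KIF20A and KIF22 were the only mitotic members with more than 30 footprint reads at 19 h. Taken as sums of the 9 members, RNA went from 335 to 12.1 FPKM and density from 256 to 13.9 FPKM, a TE change of 0.58. With the study's floor of 1 FPKM the median became 0.79. The direction of the mitotic TE change at 19 h therefore depended on how low values were treated.

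All transport kinesins stayed within 2-fold of the control in RNA at 19 h. Of the 15, 6 were lower and 9 higher than the control at 19 h, with log2 changes between -0.77 (KIF5C, 14 reads) and 0.44 (KIF5A). KIF5B (ENSG00000170759), the heavy chain of conventional kinesin in most tissues, was the highest kinesin of the control at 83.8 FPKM, and had 80.6, 83.2, 75.6 and 61.3 FPKM at 2, 4, 6 and 19 h. Its log2 change at 19 h was -0.45 ± 0.020, below 2-fold but many times its counting error. KIF1C (ENSG00000129250), a fast kinesin-3 of vesicle transport, stayed between 49.2 and 51.7 FPKM in all 5 libraries. KIFC3, which walks towards the minus end, had 37.9, 39.0, 44.6, 28.6 and 28.1 FPKM, a change of -0.43 ± 0.041 at 19 h.

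The 3 KIF3 subunits of kinesin-2 were above the control at 6 h. KIF3B (ENSG00000101350) had 17.2, 17.5, 20.1, 24.0 and 22.5 FPKM, a log2 change of 0.39 ± 0.038 at 19 h. KIF3A, its partner in the heterodimer, had 5.00, 5.32, 5.01, 5.95 and 6.73 FPKM, a change of 0.43 ± 0.11. Both were above the control in all 4 treated libraries, by as little as 0.0055 ± 0.11 (KIF3A, 4 h) and 0.017 ± 0.039 (KIF3B, 2 h). KIF3C, which can take the place of KIF3B beside KIF3A, had 6.16, 6.29, 4.91, 6.65 and 5.49 FPKM and changed by -0.17 ± 0.073. None of these reached 2-fold.

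The remaining transport kinesins above a mean of 5 FPKM also stayed within 2-fold of the control in RNA. KIF13A, a carrier of recycling endosomes, had 16.6, 17.7, 15.9, 20.9 and 19.3 FPKM, with a change of 0.22 ± 0.040 at 19 h. KIF1B, which moves mitochondria and synaptic vesicle precursors, had 5.83, 6.25, 6.01, 6.79 and 6.18 FPKM. KIFC2, whose motor domain lies at the C-terminal end, had 5.45, 4.75, 3.93, 4.08 and 7.06 FPKM, lowest at 4 h and highest at 19 h, with a change of 0.37 ± 0.087 at 19 h. Below a mean of 5 FPKM lay KIF17, KIF13B, KIF16B, KIF5A, KIF21A and KIF5C, with means of 0.108 to 1.83 FPKM and changes of -0.77 to 0.44 at 19 h. KIF21A at 4 h, at 0.062 FPKM against 0.133 in the control, was the only call among the transport kinesins at any time in RNA.

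**Figure D4:**
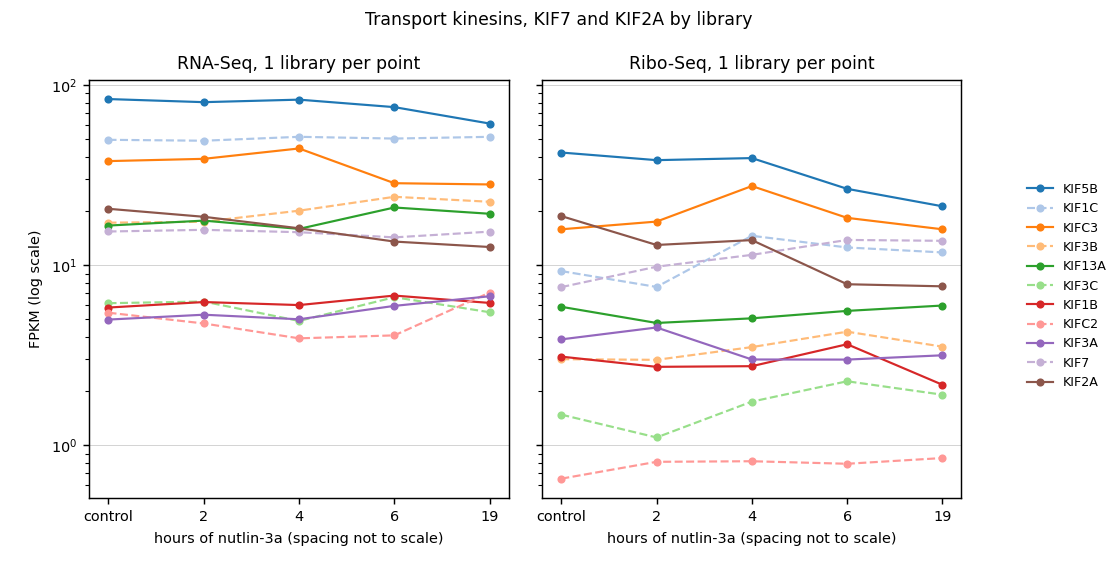
FPKM (log y axis) of the 9 transport kinesins whose RNA-Seq mean was 5 FPKM or more, and of KIF7 and KIF2A, against hours of nutlin-3a, with the control at 0, in RNA-Seq (left) and Ribo-Seq (right) and 1 library per point. In RNA-Seq no line reaches a 2-fold change from the control, with KIF2A declining from 20.6 to 12.6 FPKM and KIFC2 dipping to 3.93 and ending at 7.06 FPKM, and in Ribo-Seq KIF7 climbs from 7.57 to 13.7 FPKM while KIF5B declines from 42.3 to 21.3 FPKM.

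Density of the transport kinesins spread more widely around the control than their RNA. The median log2 change of the 14 in the Ribo-Seq table was 0.097 at 19 h, against -0.18 over all transcripts. KIF5B had the firmest decline, from 42.3 FPKM through 38.4, 39.4 and 26.6 to 21.3 FPKM, a change of -0.99 ± 0.053 at 19 h that stopped just short of 2-fold. KIF1C was at 9.29, 7.58, 14.6, 12.6 and 11.8 FPKM, so its densities at 2 h and 4 h lay on opposite sides of the control while its RNA stood still. KIFC3 was at 15.8, 17.5, 27.6, 18.3 and 15.8 FPKM, highest at 4 h. KIF1B was at 3.11, 2.73, 2.75, 3.64 and 2.17 FPKM, a change of -0.52 ± 0.14 at 19 h.

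The other named transport members had shallow footprints. KIF3B was at 3.01, 2.99, 3.51, 4.28 and 3.53 FPKM, KIF13A at 5.88, 4.78, 5.08, 5.58 and 5.98 FPKM, and KIF3A at 3.88, 4.51, 2.998, 2.994 and 3.16 FPKM. KIF3C was at 1.48, 1.11, 1.75, 2.27 and 1.91 FPKM and KIFC2 at 0.653, 0.810, 0.816, 0.790 and 0.85 FPKM. At 19 h the 95% counting intervals of the change of all 5 held 0. The 2 calls at 19 h, KIF5C lower and KIF5A higher, rested on 1 and 4 reads, with 95% counting intervals of -4.78 to 1.41 and -1.14 to 3.18. Over all transcripts 16.2% were called lower and 8% higher in density.

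Transport kinesins are long transcripts, and density changed with transcript length across these libraries. The recovered lengths of the transport members had a median of 5850 nt (2653 to 8746 nt), those of the mitotic members 3508 nt, and those of all transcripts 2927 nt. With transcripts split into 10 classes of equal number by length, in the longest class the median log2 density change was 0.21, 0.074, 0.16 and 0.030 at 2, 4, 6 and 19 h, and in the shortest class it was -0.19, 0.13, -0.18 and -0.37. Set against transcripts of the same length class, the median density change of the transport kinesins at 19 h was 0.25 and that of the mitotic kinesins -5.02. Single long transcripts outside the family set the control and 4 h apart from the other Ribo-Seq libraries: FN1, a fibroblast marker named after its values were seen, was at 147, 476, 220, 696 and 781 FPKM in density. The study's methods describe a difference between sequencing runs and say that each condition was compared with the control of its own run. The study's own list of samples holds nutlin-3a at 6 and 19 h and no library at 2 or 4 h. The labels give no run, so at 2 and 4 h run and treatment cannot be told apart in RNA, density or TE changes. For 6 and 19 h a control of the same run is the study's statement and was not checked here. The part of the length trend in single values was not tested.

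Of the 14 transport kinesins, 3 were higher and 3 lower in TE at 19 h with a 95% counting interval off 0, shares no larger together than those of all transcripts with recovered reads, 19.6% and 29.1%. KIF1C had a TE change of 0.29 ± 0.076 at 19 h, KIFC3 of 0.43 ± 0.10 and KIF3C of 0.53 ± 0.23. KIF5B had -0.54 ± 0.057, KIF1B -0.60 ± 0.15 and KIF3A -0.72 ± 0.25. Over the whole family at 19 h, 6 of 28 members were higher and 4 of 28 lower by the same measure. The median TE change of the 14 transport members was 0.037 at 19 h and none was called in either direction. In the control, TE had a median of -1.17 in the mitotic and -1.38 in the transport members, and both were near the medians of their length classes, with median differences of -0.072 and -0.19. Over all transcripts the median control TE was 0.86 in the shortest length class and -1.64 in the longest, so the 2 class values do not compare directly.

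**Figure D5:**
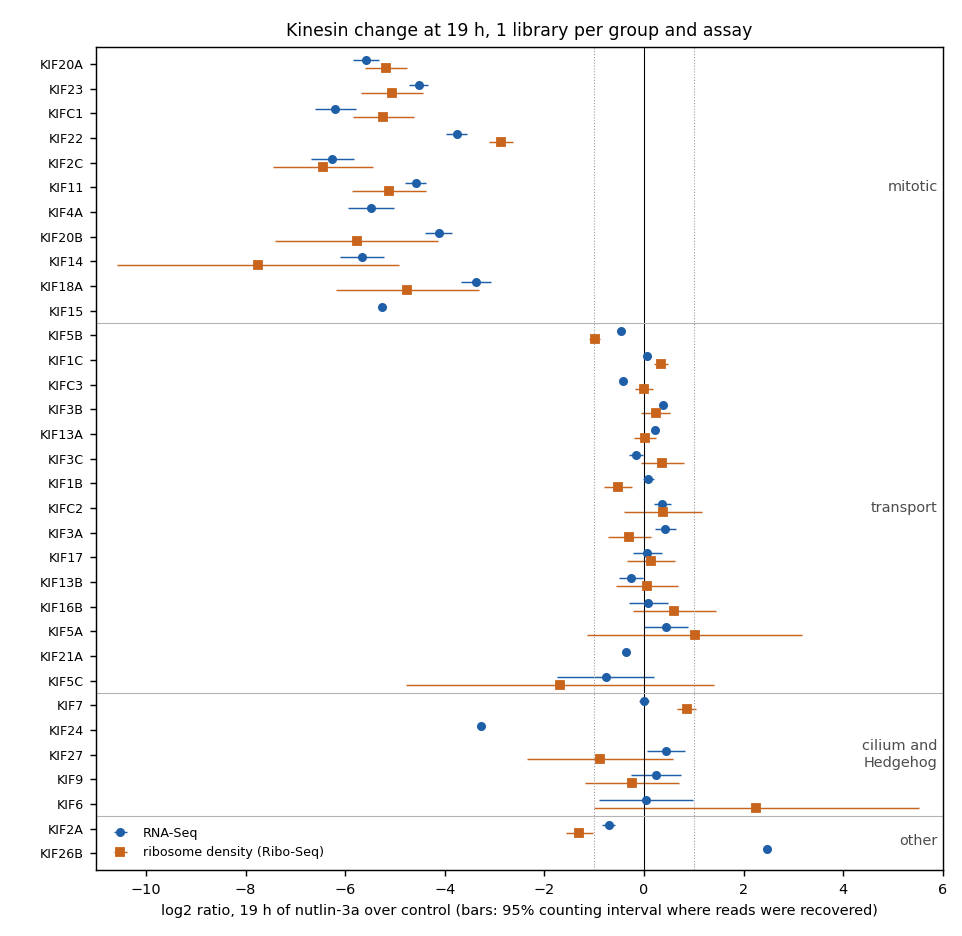
Log2 ratio of the 19 h library to the control for all 33 kinesins, grouped by class, in RNA-Seq (circles) and Ribo-Seq (squares), with 95% counting intervals where reads were recovered and dotted lines at 2-fold. All 11 mitotic members lie left of -3 in RNA, the 15 transport members lie between -0.77 and 0.44, and KIF24 (-3.27) and KIF26B (2.47) stand apart from their classes.

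Outside these classes the RNAs split, and the members below a mean of 5 FPKM named here and above were chosen after their values were seen. KIF24 (ENSG00000186638), a centriolar kinesin that holds back cilium assembly in cycling cells, had 3.17, 3.48, 2.54, 0.749 and 0.329 FPKM. Its log2 change of -3.27 at 19 h came close to that of KIF18A among the mitotic members. KIF7 (ENSG00000166813), a regulator of Hedgehog signalling at the cilium tip, was at 15.4, 15.7, 15.3, 14.3 and 15.4 FPKM in RNA, a change of -0.0027 ± 0.049. Its density was 7.57, 9.82, 11.4, 13.8 and 13.7 FPKM, higher than the control in all 4 treated libraries, and its TE changes were 0.35 ± 0.11, 0.61 ± 0.10, 0.98 ± 0.10 and 0.86 ± 0.11 at 2, 4, 6 and 19 h. At 19 h the TE change of KIF7 was 0.95 above the median of its length class, though it was short of 2-fold. KIF27, KIF9 and KIF6 had means of 0.052 to 0.953 FPKM and changes of 0.037 to 0.44 at 19 h. KIF6 was called lower in RNA at 4 and 6 h, at -1.76 ± 0.73 and -1.70 ± 0.69 on 5 and 6 reads. It was called higher in density at 19 h, at 2.26 on 3 reads, with an interval of -1.01 to 5.52. The calls of KIF27 and KIF6 in TE at 19 h rested on 5 and 3 footprint reads, and their intervals held 0.

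KIF2A (ENSG00000068796), a relative of KIF2C that depolymerises microtubules in interphase and at spindle poles, lost RNA and density without the steep course of KIF2C. Its RNA was at 20.6, 18.6, 16.1, 13.5 and 12.6 FPKM and its density at 18.8, 13.0, 13.8, 7.85 and 7.64 FPKM. The log2 changes at 19 h were -0.70 ± 0.068 in RNA and -1.30 ± 0.14 in density, so it was called lower in density only. KIF26B, which lacks motor activity, had 0.075, 0.092, 0.146, 0.239 and 0.416 FPKM, its value higher in each later library. It was the only kinesin called higher in RNA at 19 h, by 2.47 on the log2 scale, against 5.75% of all transcripts. Its reads could not be recovered, so the call has no counting error, and all its values lay below the study's floor of 1 FPKM. Over the family 12 of 33 members were called lower in RNA at 19 h, against 8.54% of all transcripts.

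In the median, genes listed beside the mitotic and transport classes changed in RNA much as those classes did. The mitotic list holds partners of the motors, CENPE and general genes of mitosis such as CDK1, CCNB1 and PLK1. It was drawn up with earlier results of these data known. Of its 20 genes 19 were in the table, and all 19 were called lower at 6 h and at 19 h. Over all transcripts 7.66% were called lower in RNA at 6 h and 8.54% at 19 h. The median log2 change of the 19 genes was -5.17 at 19 h. CENPE, a kinetochore kinesin outside the symbol rule, was at 10.3, 12.0, 7.10, 3.14 and 0.415 FPKM, a change of -4.63 ± 0.15. CDCA8 and NUF2, of the chromosomal passenger complex and the kinetochore, changed most (-6.97 ± 0.29 and -6.66 ± 0.39), and INCENP and CCNB2 least (-3.16 ± 0.090 and -3.94 ± 0.12). The density of all 19 was called lower at 19 h as well, against 16.2% of all transcripts, with a median of -5.07.

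Adaptors and regulators of the transport motors had a median log2 RNA change of 0.063 at 19 h, with 14 of 16 listed, 1 called higher and none lower, a share near the 5.75% of all transcripts called higher. The call was KLC4, a kinesin light chain, at 3.43, 2.83, 2.88, 7.18 and 7.10 FPKM, a change of 1.05 ± 0.12, with density at 2.40, 4.27, 3.71, 6.91 and 8.598 FPKM. KLC1 and KLC2, the other listed light chains, changed by 0.22 ± 0.084 and -0.15 ± 0.054. KIFAP3, the third subunit of kinesin-2, had 15.7, 15.5, 14.3, 18.8 and 18.9 FPKM and changed by 0.26 ± 0.057. Of the others MAPK8IP3 (0.57 ± 0.049) was highest, and KIAA1279, which binds kinesins and blocks their motor domains (-0.47 ± 0.050), and MAPK8IP2 (-0.20 ± 0.47) were lowest. In density 2 of the 14 were called higher and 1 lower, against 8% and 16.2% of all transcripts. The lower call was RHOT1, a mitochondrial adaptor named after its values were seen, at -1.30 ± 0.21.

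Dynein, the motor that walks the opposite way, showed no call in RNA at 19 h among 21 listed of 25 genes of dynein, dynactin and their adaptors, against 8.54% of all transcripts called lower and 5.75% called higher. Their median log2 change was -0.11, from -0.54 ± 0.047 in BICD2 and -0.48 ± 0.053 in DYNLL2 to 0.32 ± 0.061 in DCTN5 and 0.32 ± 0.19 in DYNLT3. Density had a median change of -0.43, with 17 of 21 below 0. There 1 was called lower and 1 higher, against 16.2% and 8% of all transcripts. Both calls are named after their values were seen: DYNLT1 changed by -1.25 ± 0.095, and DYNC1H1 was at 10.9, 35.7, 14.7, 29.0 and 29.1 FPKM in density while its RNA stayed between 99.2 and 109 FPKM.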

How the data were processed

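Poly(A) RNA and ribosome footprints of BJ cells were sequenced. Bowtie was used by the authors to map reads to coding transcripts of Ensembl 65, 1 per gene. They kept unique hits and deposited FPKM with 3 decimals. The labels name hg19. No pooling is stated. A table named for both assays was read as RNA-Seq: 19 of 24 HIST1H transcripts, whose mRNAs lack poly(A) tails, were below 1 FPKM in its control. The methods describe Ribo-Seq levels from coding sequence, but the column names say total, so footprints elsewhere may be included.

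Deposited FPKM were used without floor or filter. Whole reads, lengths and totals were worked out from the steps between FPKM values for 11253 of 11258 transcripts in both tables, with a method tested on simulated data. The SE of a log2 change is the root of the summed inverse reads over the natural log of 2, intervals are 1.96 SE, and PCR copies could not be told apart, so both cover counting error only. With 1 library per group no test was run.

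Members, classes and lists were chosen with earlier results of these data known. Named with values were all mitotic members, others with a mean of at least 5 FPKM, CENPE, light chains, KIFAP3 and CDKN1A. The 2 highest and 2 lowest changes of each list of mitosis, adaptor and dynein genes were named as well. Protein sequences were not used here. Promoters came from RefSeq GRCh38.p14. Alternatives were floors of 1 and 5 FPKM, a pseudocount, a filter, the 2 h baseline, centring and length. Python 3.11.15, numpy 2.4.6, pandas 2.3.3 and matplotlib 3.10.9 were used.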

Additional observations from a re-analysis of the deposited data

How the results depend on the processing

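The 11 class results (medians, and counts of 2-fold lower RNAs) were recomputed under up to 9 alternatives each, which gave 94 values. Of these, 72 stayed within a set tolerance of the median or within 1.5 times the count. The tolerance was the reach of a 95% counting interval at the median SE of single members. It is not the counting error of a class median, and values of another sign could pass. For mitotic TE at 19 h it was 0.77, so 0.11 among members with a mean of 5 FPKM in both assays passed against -0.53. The counts of 2-fold lower RNAs at 19 h were 10 or 11 of the mitotic and 0 of the transport kinesins throughout. Every mitotic RNA and density median stayed below 0 under each alternative run. Low values set how deep the fall appears, by construction of the floors. With a floor of 5 FPKM the mitotic RNA median was -2.35 at 6 h and -2.83 at 19 h, the density median -2.33 and the TE median 1.13. With a floor of 1 FPKM the 19 h values were -3.94 (RNA), -3.79 (density) and 0.79 (TE). With a pseudocount of 1 FPKM they were -3.61, -3.41 and 0.47, and RNA at 6 h was -2.48. With the 2 h library as baseline the mitotic RNA medians at 4, 6 and 19 h were -0.38, -2.64 and -4.95. Set against the same length class, RNA at 4 h was -0.40. Alternatives chosen after seeing the data were sums over a class and members with at least 30 reads in each library. Sums gave -4.82 (RNA), -4.21 (density) and 0.58 (TE) for the mitotic kinesins at 19 h, and -0.13 (RNA) and -0.34 (density) for the transport kinesins. The 2 mitotic members with 30 reads gave -4.02 in density and 0.64 in TE. The mitotic TE median at 19 h therefore had no settled sign.

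With 1 library per group the spread between cultures is unknown, and the footprint reads left at 19 h limit what can be said of the mitotic densities. No paired analysis was possible because each group holds 1 library.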
